A study of Drosophila melanogaster with 3 samples.

Results

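The genes described here are 9 members of the insulin and TOR (target of rapamycin) pathway of Drosophila melanogaster: InR, chico, Pi3K92E, Akt, foxo, Tsc1, gig, S6k and Thor. They were chosen with earlier results of these peak lists known, so their number of summits is a description and not a test. The positions and signal values of Pipsqueak ChIP-seq summits within their spans or 1 kb of them were read from the authors' list of reproducible peaks on dm6. Summits were found at 6 of the 9 genes (66.7%), against 37.4% of all 13968 protein-coding genes counted in the same way, and numbered 27 of the 9459 in the list. Pipsqueak, a BTB-domain DNA-binding protein that recognises GA-rich sequence, carried eGFP at its C terminus in a transgenic line (strain psq-GFP) and was precipitated from pooled male and female larvae at the wandering stage of the third instar, used whole, with an antibody to GFP. The 3 samples were biological replicates of this single group, so there was no contrast between conditions and no test was possible.

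Insulin-like peptides bind the receptor encoded by InR, which acts through the substrate protein Chico and the lipid kinase PI3K to activate the kinase Akt. Akt keeps the forkhead transcription factor Foxo out of the nucleus and restrains the Tsc1 and Gigas (Tsc2) complex, which otherwise holds back TORC1, the growth-promoting TOR kinase complex. TORC1 phosphorylates S6 kinase and Thor, the 4E-BP repressor of translation initiation. In the larva this pathway couples feeding to growth, and Foxo is known to act on the promoters of InR and Thor when insulin signalling is low.

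The DNA around the strongest summits is shown first. The strongest Pipsqueak summit of InR and the summit of Thor had a run of alternating G and A within 50 bp, though not at the summit base itself. Each sequence is RefSeq release 6 (dm6), written 5′ to 3′ on the strand of the gene, covering the summit with 50 bp on either side of it, shortened where an annotated exon begins, with GAGAG, or CTCTC where it is on the other strand, in capitals. The first lines are the InR windows with a signal value above 1000, in order of signal, and the others are the strongest windows of Thor, foxo, S6k and Akt. The summit of Pi3K92E lay in an exon and its sequence is not shown.
InR, chr3R:21605560-21605660: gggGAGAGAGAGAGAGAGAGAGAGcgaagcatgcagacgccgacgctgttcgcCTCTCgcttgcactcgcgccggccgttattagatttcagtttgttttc
InR, chr3R:21613511-21613611: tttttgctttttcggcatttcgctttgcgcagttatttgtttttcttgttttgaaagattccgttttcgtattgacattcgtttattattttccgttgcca
InR, chr3R:21606789-21606889: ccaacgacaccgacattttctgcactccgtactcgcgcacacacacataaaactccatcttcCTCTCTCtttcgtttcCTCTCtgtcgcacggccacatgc
InR, chr3R:21618458-21618558: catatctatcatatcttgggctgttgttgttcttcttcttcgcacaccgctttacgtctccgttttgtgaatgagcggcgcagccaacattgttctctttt
InR, chr3R:21616343-21616443: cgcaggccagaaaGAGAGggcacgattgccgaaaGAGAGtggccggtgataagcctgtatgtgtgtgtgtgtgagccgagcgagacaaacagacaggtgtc
Thor, chr2L:3478376-3478433: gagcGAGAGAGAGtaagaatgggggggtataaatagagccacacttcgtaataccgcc
foxo, chr3R:14056627-14056727: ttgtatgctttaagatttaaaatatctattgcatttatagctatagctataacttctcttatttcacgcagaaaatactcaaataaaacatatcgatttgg
S6k, chr3L:5802209-5802309: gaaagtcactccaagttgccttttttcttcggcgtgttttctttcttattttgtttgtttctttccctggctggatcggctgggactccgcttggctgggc
Akt, chr3R:16099905-16100005: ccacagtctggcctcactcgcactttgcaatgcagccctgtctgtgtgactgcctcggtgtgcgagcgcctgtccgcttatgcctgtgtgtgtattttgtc

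In the strongest InR window the alternating run was 21 bases long, and 7 of the 9459 optimal windows (0.0740%) held a run at least as long. In the Thor window the run was 9 bases long, a length reached by 1.77% of the optimal windows. The second strongest InR window, by contrast, held no GAGAG, nor did the windows of foxo, S6k and Akt. A match describes these letters in this window and does not show what the protein contacted.

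InR, the receptor gene and the longest of the 9, held 20 of the 27 summits (74.1%). The gene lies on the minus strand of 3R from 21570248 to 21619321 and has 4 annotated start sites. With overlapping entries joined into sets, its 20 summits formed 16 sets. The optimal entries covered 15.7% of the InR span, against 2.95% of the arms that carry entries. The signal value is the authors' own, on a scale that is not stated, and is compared here only within a list. In whole larvae it cannot tell more cells with Pipsqueak at a site from more Pipsqueak per cell.

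The optimal Pipsqueak summits of InR lay mostly in its long 5′ introns, and none lay in its coding exons. By transcript InR-RA, the first intron of 15153 bp held 13 summits, the second intron of 15010 bp held 5 and the third intron of 7264 bp held 1. The remaining summit lay 23 bp upstream of the outermost start site. Introns 4 to 12, each of at most 102 bp, and the 10706 bp of InR-RA exons held 0 optimal summits. The top list of replicate 3 had 1 summit in a coding exon of InR, at 21580302 with rank 8429. Neighbouring summits were a median of 1229 bp apart, with gaps from 200 to 7579 bp.

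**Figure D1:**
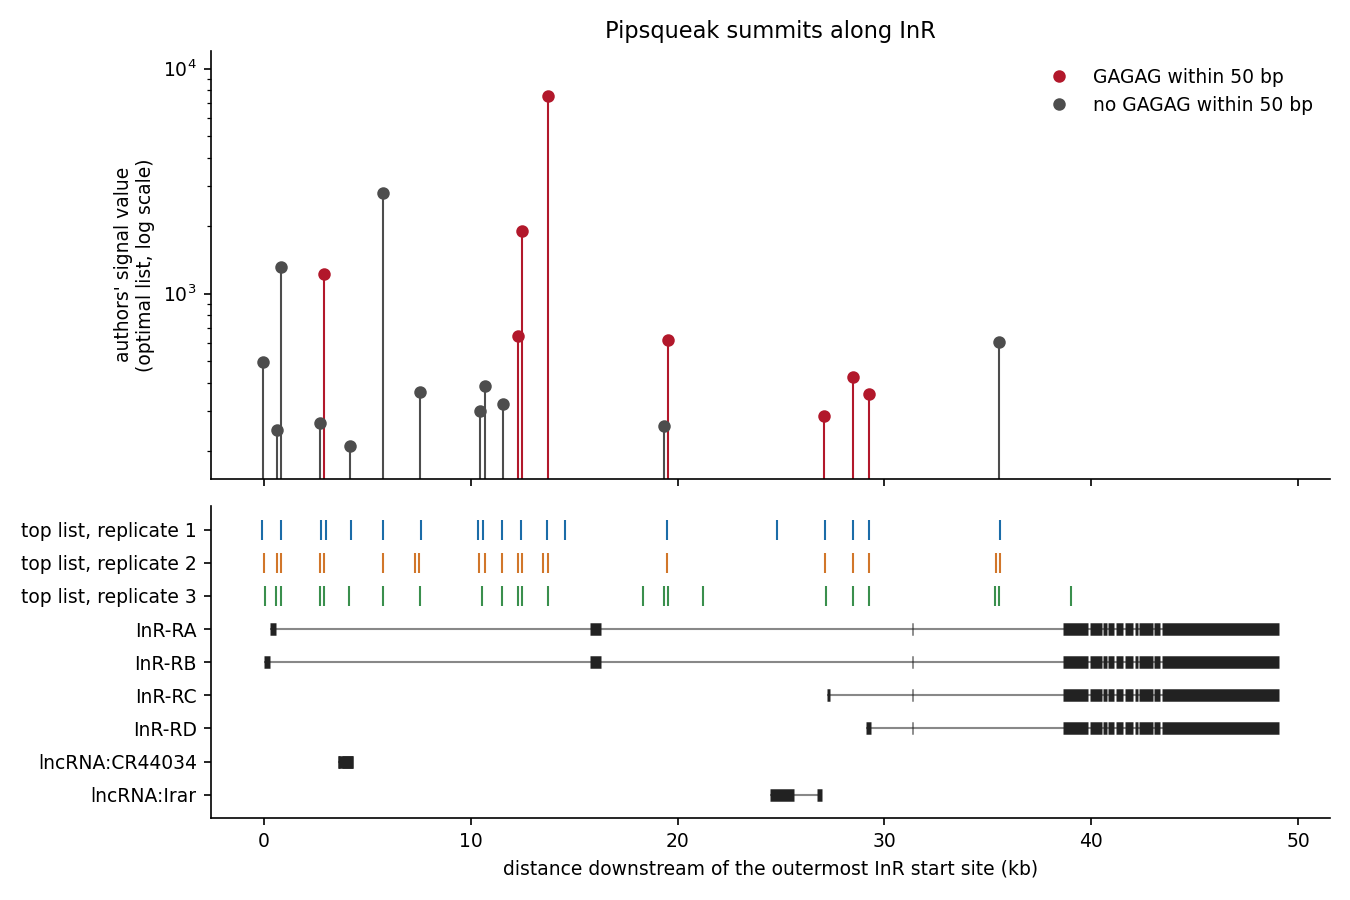
Upper panel, the authors' signal value (log scale) of the 20 optimal summits against the distance in kb downstream of the outermost InR start site, in red where GAGAG lies within 50 bp of the summit; lower panel, summits of the 3 replicate top lists as ticks, the exons of the 4 InR transcripts and of 2 overlapping non-coding RNAs as boxes. The strongest summit, at a signal of 7563, lies in the first intron of InR-RA, and the only summit in the exons at the right is one of the replicate 3 top list.

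The strongest InR summit was at 21605610, in an entry 984 bp wide, with a signal value of 7563, and ranked 5 of the 9459 optimal peaks. It lay in the first intron, 13426 bp away from any InR start site and 10130 bp from that of lncRNA:CR44034, a non-coding RNA gene within the intron. In the replicate lists, each of 30000 entries, the matching entry ranked 17 in replicate 1, 4 in replicate 2 and 2 in replicate 3, and its summit was displaced by 11, 0 and 0 bp. All 3 replicates therefore placed it among their strongest entries. Its signal was 2.70 times that of the next InR summit.

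A further 4 InR summits were among the strongest 10% of the optimal list, and they too lay in the first intron. The one at 21613561 had a signal of 2798 and ranked 174, 151 and 91 in replicates 1, 2 and 3. At 21606839 the signal was 1899 and the ranks were 776, 327 and 246. The summit at 21618508, 528 bp downstream of the inner of the 2 upstream start sites, had a signal of 1309 and ranks of 1159, 622 and 587. For the summit at 21616393 the signal was 1224 and the ranks were 1390, 988 and 563. Replicate 1 gave the lowest place to each of these 5 summits. At q-values up to 0.01 its list held 9925 entries, against 16596 and 14879 in replicates 2 and 3, and the part of this difference in the ranks was not tested.

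The other 15 InR summits were weaker, with signal values from 211 to 645. Of the 20, 4 lay within 500 bp of an InR start site, and each was nearest to a different one of the 4 start sites. The outermost start site had a summit 23 bp upstream with a signal of 494, and the start site inside it had one 325 bp downstream with a signal of 248. The 2 internal start sites, which begin the shorter transcripts InR-RC and InR-RD, had a summit 98 bp upstream (signal 285) and one 125 bp downstream (signal 359). None of the 5 strongest InR summits thus lay within 500 bp of an InR start site. The summit at 21618508 was only just beyond that limit, at 528 bp. Its entry overlapped that of the summit 325 bp downstream of the same start site.

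Of the 20 InR summits, 18 lay in peaks overlapped by the top list of every replicate, that is, by its 9459 entries with the highest signal. The exceptions were the summit at 21608887, which no entry of the replicate 3 list overlapped, and that at 21615162, whose matching entry ranked 11792 in replicate 2. The peak at 21600000 was overlapped by every top list, but the entries with the nearest summits ranked 16964 in replicate 1 and 13081 in replicate 2, so there the overlap came from entries matched to a neighbouring summit. In replicate 1, the summits at 21607043 and 21618711 were matched by the same entries as their stronger neighbours at 21606839 and 21618508. The summits of those entries lay 137 and 202 bp away from them, so this overlap does not show separate summits in replicate 1. The top lists themselves placed 19, 21 and 23 summits at InR, a mean of 21 ± 2 (SD, n = 3). Part of this overlap is built in, since the optimal list was derived from the same replicates. Over all optimal peaks, 80.7% were overlapped by every top list.

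Pipsqueak summits at InR were numerous also for a gene of its length. Among all 13968 protein-coding genes InR ranked 20 by number of summits and 6 by its strongest signal. Of the 736 other protein-coding genes with a span within 2 times that of InR, 64.3% had a summit. They had a median of 2 summits, a 90th percentile of 10 and a highest number of 43, and InR ranked 12 among them. The number was read from the same list by which the gene was chosen, so these ranks are a description.

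Almost all InR summits lay more than 1 kb from the span of any other protein-coding gene. Which genes they act on was not tested. The exception was the summit 23 bp upstream of InR, which also lay within 1 kb of the 3′ end of E2f1, a cell cycle transcription factor gene. The spans of InR and E2f1 are 983 bp apart. The non-coding RNA gene lncRNA:CR44034 had 3 InR summits within 1 kb of its span, 1 of them in its exon, and lncRNA:Irar had 1.

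Chico, the insulin receptor substrate, had no Pipsqueak summit. The gene (2L, 10242512 to 10247078) held 0 summits of the optimal list and 0, 0 and 0 of the top lists of the replicates. The lists with background held a few entries there, the best of them at rank 28832 in replicate 1, 23460 in replicate 2 and 21538 in replicate 3, with −log10 q-values of 0.0856, 0.834 and 0.820. The nearest optimal summit was 11185 bp from the gene. A peak list cannot show that binding is absent, only that none was listed above its threshold.

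Pi3K92E, which encodes the catalytic subunit of PI3K, had a single summit just inside the gene. It lay at 20634143 on 3R, 589 bp downstream of the start site, in the 5′ UTR exon of transcript Pi3K92E-RC and in the first intron of Pi3K92E-RA and Pi3K92E-RB. The signal was 459.7, above the median of 364.6 of all optimal peaks. The replicate entries ranked 3027, 4264 and 3604, within every top list. The −log10 q-values of 4.17, 4.31 and 4.31 were the highest in their lists and do not separate entries.

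Akt, the kinase downstream of PI3K, also had a single summit, and it was weak. It lay at 16099955 on 3R, 727 bp downstream of the outermost start site, in the first intron of 4 of the 5 transcripts. The signal was 216, which ranked 8326 of 9459. The replicate entries ranked 6351, 9053 and 7308, within every top list.

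The gene of the forkhead factor, foxo, had 3 summits spread over 31034 bp, the strongest of them at its promoter. This summit lay at 14056677 on 3R, 268 bp upstream of the outermost start site, with a signal of 538 and ranks of 3267, 2408 and 3751 in the 3 replicates. The second, at 14061589, lay in an intron of 8433 bp with a signal of 394. It ranked 2777 in replicate 2 and 4218 in replicate 3, and no entry of replicate 1 overlapped it, although the top list of replicate 1 had a summit farther along the same intron, 4056 bp from the nearest foxo start site. The third, at 14077261 in an intron of 12193 bp, had a signal of 192, just above the lowest value of the optimal list, 191, and was in the top list of replicate 1 alone, at rank 7766.

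For a gene of its length, foxo had a number of summits above the median. Its 3 summits compare with a median of 2 and a 90th percentile of 7 over the 1109 other genes with a span within 2 times its own, among which it ranked 339. The top lists placed 4, 3 and 5 summits there, a mean of 4 ± 1 (SD, n = 3).

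Neither gene of the TSC complex, Tsc1 and gig (Gigas), had a summit. Tsc1 (3R, 24130307 to 24134654) held 0 entries even in the pooled list and 1 weak entry in replicate 3, at rank 20808. Gig (3L, 20129181 to 20139010) held 0 entries in the pooled list and in each replicate list. The nearest optimal summits were at start sites of other genes, 6552 bp from Tsc1 at Kal1 (signal 1654) and 1780 bp from gig at CG7328 (signal 486). Among protein-coding genes with a span within 2 times their own, 44.5% had a summit for Tsc1, 56.2% for gig and 45.4% for chico, so a gene of such a length without a summit is common.

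S6k, the S6 kinase gene, had 1 weak summit on which the replicates differed. It lay at 5802259 on 3L, in intron 9, 8672 bp downstream of the S6k start site and 774 bp from the start site of CG42272, a gene on the other strand within S6k. The signal was 226. Its entry ranked 7540 in replicate 2 and 6773 in replicate 3 but 20422 in replicate 1, where the −log10 q-value was 0.325. The top list of replicate 1 instead held a summit 18 bp from the S6k start site, at rank 8255, and another 1029 bp from it. S6k was therefore the 1 bound gene whose strongest summit was not in every top list, and requiring every replicate left it without a summit.

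Thor, the smallest of the 9 genes at 1179 bp, had a summit at its start site. The summit lay at 3478426 on 2L, 8 bp upstream of the outermost start site, with a signal of 409. The replicates ranked the entry 3310, 3605 and 7227, and placed its summit 38, 8 and 37 bp from the nearest Thor start site. The window held the GA run shown above and a TATAAA. The summit was also within 1 kb of the non-coding RNA gene lncRNA:CR43928. Of the 6698 other protein-coding genes with a span within 2 times that of Thor, 26.9% had a summit.

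**Figure D2:**
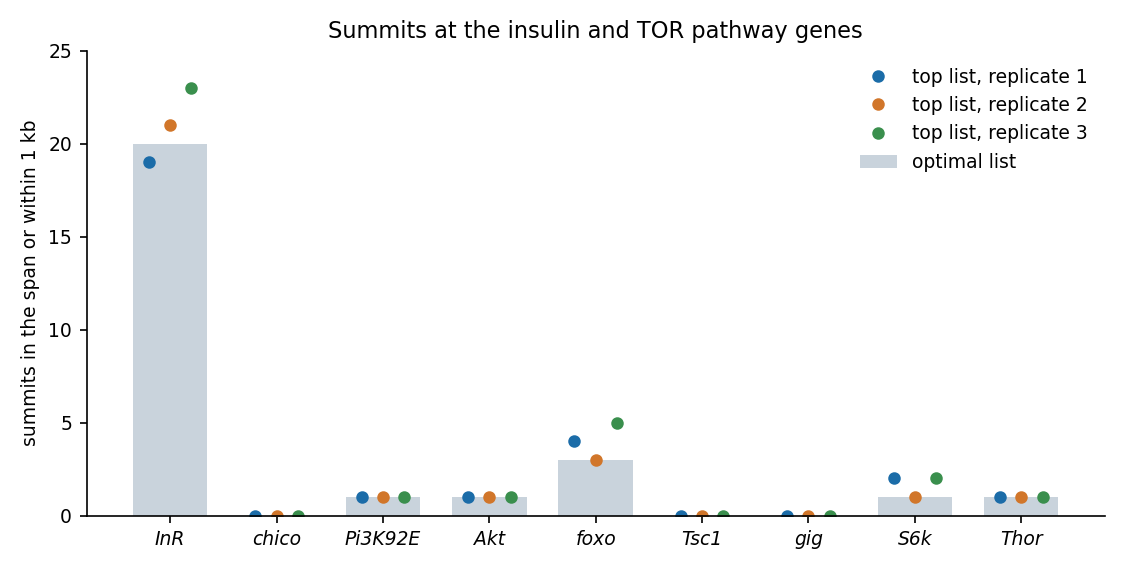
Number of summits (y axis) within the span or 1 kb of each of the 9 genes, as bars for the optimal list and points for the top list of each replicate. InR has 20 summits and between 19 and 23 in the replicates, foxo has 3, and chico, Tsc1 and gig have 0 in every list shown.

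**Figure D3:**
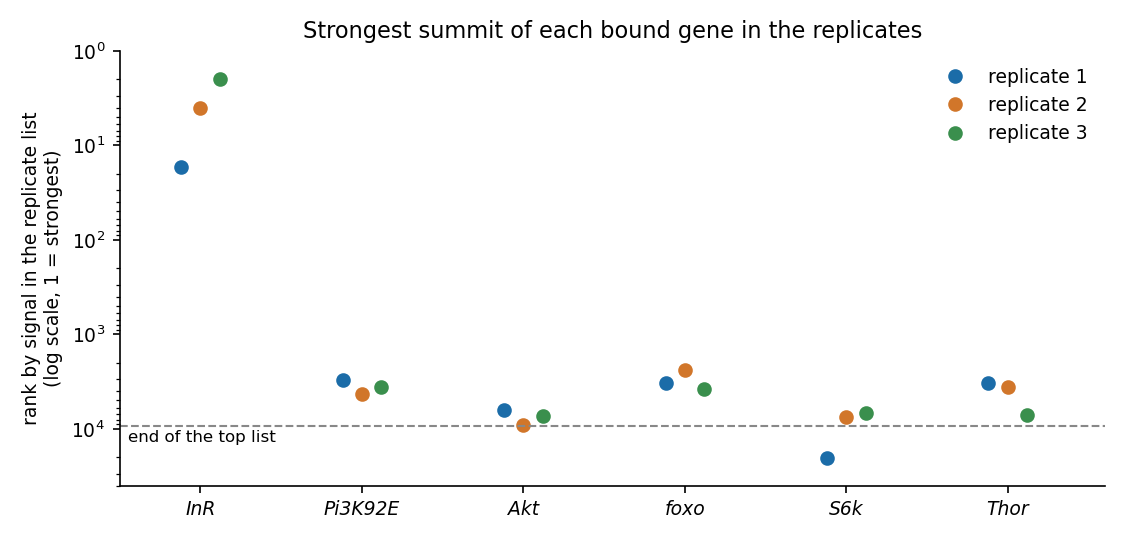
Rank by signal (log scale, 1 is the strongest) of the entry matching the strongest summit of each bound gene in the list of each replicate, with the end of the top lists at 9459 as a dashed line. InR ranks between 2 and 17, and S6k falls beyond the top list in replicate 1 at 20422.

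Set side by side, the bound genes fell far apart. By strongest signal the order was InR (7563), foxo (538), Pi3K92E (459.7), Thor (409), S6k (226) and Akt (216). The gap from InR to foxo held in each replicate, where foxo ranked between 2408 and 3751. Between foxo, Pi3K92E and Thor the order changed among replicates: Pi3K92E ranked first of the 3 in replicate 1 and in replicate 3, and foxo in replicate 2. S6k and Akt likewise changed places, with S6k ahead in replicates 2 and 3 and Akt in replicate 1.

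The share of bound genes among the 9 was 66.7%, against 37.4% of all protein-coding genes. This set is longer than most, with a median span of 6443 bp against 2164.5 bp. Among protein-coding genes of at least 5000 bp, 59.1% had a summit, and 5 of the 6 genes of the set in that range did. From 2165 to 4999 bp the share was 41.5%, and 0 of 2 (chico and Tsc1) did. From 1179 to 2164 bp it was 30.9%, and Thor, the only one there, did. Among other protein-coding genes with a span within 2 times their own, 49.1% had a summit for Pi3K92E, 50.4% for Akt and 60.7% for S6k. The median number of summits there was 0, 1 and 1, so the single summits of Akt and S6k equalled the median. The difference from the genome-wide share was not tested, since the genes were chosen with these lists known. The count was 6 in the top list of each replicate.

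**Figure D4:**
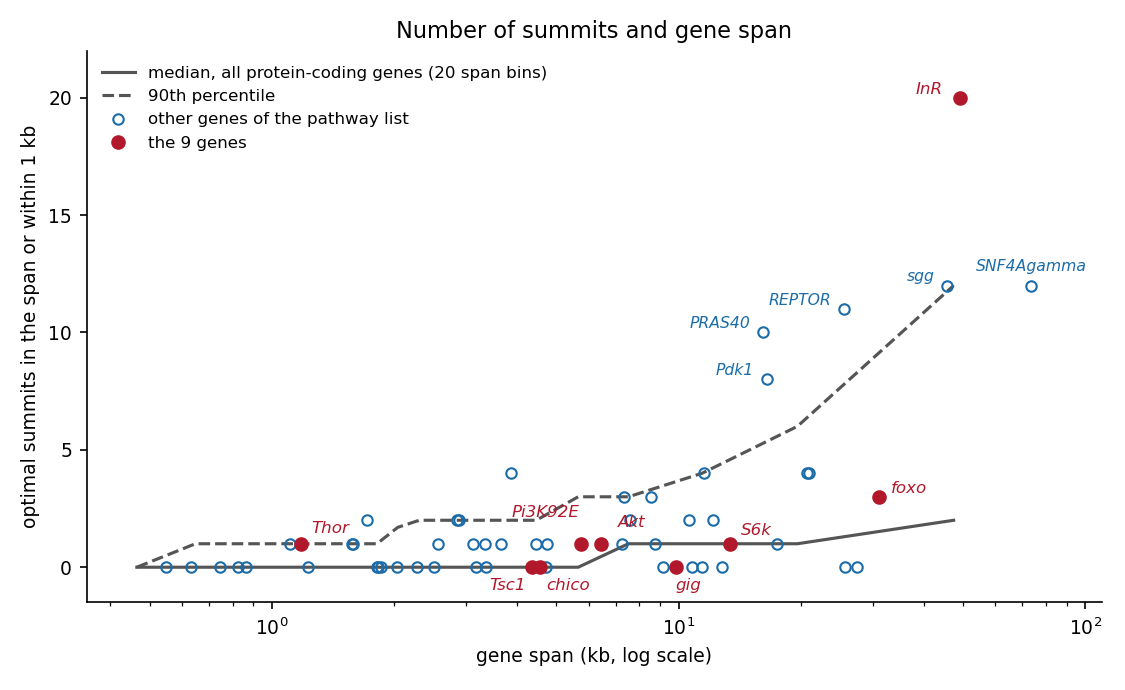
Number of optimal summits (y axis) against gene span in kb (x axis, log scale) for the 9 genes (filled red) and the other genes of the pathway list (open blue), with the median and 90th percentile of all protein-coding genes in 20 span bins as lines. InR, at 20 summits, lies above the 90th percentile line, while foxo, at 3, lies between the lines.

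By signal, the values on either side of the limit were close. The lowest signal of a summit at the 9 genes was 192, at foxo, and the highest of an entry left out of the optimal list was 188, at 14070864 in foxo as well. Replicates 1 and 3 had a summit close to that one in their top lists, at ranks 6191 and 7795. By distance, the farthest summit outside a gene that was still counted lay 268 bp from foxo, well inside the limit of 1 kb. The nearest one not counted lay 1057 bp past the other end of foxo, just beyond that limit. The next were 1391 bp from Akt and 1780 bp from gig.

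By position, the summits at these genes were more intronic than the list as a whole. Of the 27, 19 (70.4%) lay in introns, 6 (22.2%) within 500 bp of a start site, 1 in a 5′ UTR exon and 1 in an exon of a non-coding RNA. Over all optimal summits the shares were 39.6% in introns and 43.4% near start sites. Of the 19 intronic summits, 15 were at InR, so the contrast rests largely on that gene. The 6 near start sites were the 4 at InR and those of foxo and Thor.

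GC content and the share with GAGAG were higher than over the list at InR, and closer to it at the other genes. The windows of 101 bp had a median GC content of 45.5%, against 37.6% over all optimal summits, with a range from 25.7% at the foxo promoter to 57.4% at Akt and at 1 InR summit. The median was 46.0% over the 20 InR windows and 39.6% over the other 7. GAGAG on either strand was in 9 of 27 windows (33.3%), 8 of the 20 at InR and 1 of the 7 elsewhere, that of Thor. Over all optimal windows it was in 17.0%, and over windows of the same length at 19607 start sites of protein-coding genes in 12.7%. GAGAGAG, which contains GAGAG, was in 3 windows (11.1%), at the InR summits 21605610 and 21606839 and at Thor, against 4.31% of all optimal windows. With 20 of the 27 windows from a single locus, the shares are a description.

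Other sequences were sought on both strands of the same windows. GTAAACA, a forkhead core sequence, was in 1 of 27 windows (3.70%), that at the InR-RD start site, against 2.91% of all optimal windows. TATAAA was in 3 (11.1% against 17.3%), at Pi3K92E, foxo and Thor. GGAAG was in 4 (14.8% against 12.4%). TATCGATA (1.14% of all optimal windows), CACGTG (0.814%) and AGGTCA (1.56%) were in 0, which says only that these letters were not in these windows. Windows masked as repeats over at least 50% of their length were 1 of 27, the second foxo summit, against 10.8% of all optimal windows. In the strongest InR window 28.7% was masked.

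The rest of the pathway was described with a list of 59 genes that includes the 9, grouped by role. Of the other 50, 29 (58%) had a summit in the optimal list, and 30, 29 and 31 had one in the replicate top lists. The share over all protein-coding genes was 37.4%, and 41.5% over those of 2165 to 4999 bp, the range that holds the median span of these 50 genes, 4161 bp. Many of the 50 were longer, and the share was 59.1% over protein-coding genes of at least 5000 bp. Over the whole list the count was 35, with the median gene at 1 summit and a span of 4729 bp, against 0 summits and 2164.5 bp over all protein-coding genes. The roles differed in their counts, and the differences were not tested.

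None of the 8 genes for insulin-like peptides, Ilp1 to Ilp8, had an optimal summit, and only Ilp6 had one in a top list, that of replicate 2. They are short, with a median span of 844 bp, and of all protein-coding genes of 168 to 1178 bp 18.0% had a summit. Of the 4 genes for binding proteins and relaxin-type receptors, with a median span of 11774 bp, 2 had a summit. The share was 37.4% over all protein-coding genes and 59.1% over those of at least 5000 bp. ImpL2, whose secreted product binds insulin-like peptides, had 2 summits, the stronger with a signal of 966 in an intron, and Sdr, a secreted decoy receptor, had 1 of 672, 177 bp from its start site. Lgr3 and Lgr4 had 0. Among the receptor and its adaptors, dock, an SH2 and SH3 adaptor, had 1 weak summit (signal 232) and Lnk had 0, although replicate 3 placed 2 there.

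The PI3K and Akt branch had summits at 7 of 9 genes (77.8%), against 37.4% of all protein-coding genes and 59.1% of those of at least 5000 bp. The median span of the branch was 7354 bp. The strongest was at melt (Melted, a membrane-associated modulator of the pathway), 329 bp from its start site, with a signal of 2803 and ranks of 213, 88 and 165 in the replicates. Pdk1, the kinase that activates Akt, had 8 summits, the strongest at 1953. It lay 614 bp from the nearest Pdk1 start site and 373 bp from that of lncRNA:CR45805. Both exceeded the summits of Pi3K92E and Akt. The rictor and Sin1 genes, for subunits of the other TOR complex, TORC2, had 0, although replicate 1 placed 1 at Sin1.

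Of the 4 TORC1 genes, 3 had a summit, and Lst8 had 0. The share was 37.4% over all protein-coding genes and 59.1% over those of at least 5000 bp. The median span of the 4 was 8143 bp. The genes for Rheb, the GTPase that activates TORC1, and for the TOR kinase (mTor) each had 1 summit, with signals of 312 and 468. Both lay closer to the start site of a neighbouring gene, CG2931 at 121 bp for Rheb and Vha68-1 at 146 bp for mTor, than to their own at 185 and 227 bp. The gene for the subunit raptor had 2 summits, up to 408. PRAS40, which encodes a TORC1 inhibitor, had 10 summits over a span of 16126 bp, the strongest at 1874 in an intron 3811 bp from its start site. The top lists placed 9, 10 and 10 there.

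Of 17 genes for amino acid and energy sensing, 11 (64.7%) had a summit, against 37.4% of all protein-coding genes and 41.5% of those of 2165 to 4999 bp. Their median span was 3361 bp, but several of them exceeded 5000 bp, a range in which 59.1% of protein-coding genes had a summit. The strongest were at Sesn, which encodes the stress-induced TORC1 inhibitor Sestrin (4 summits, up to 2276), and at Iml1, a subunit of the GATOR1 complex (2 summits, up to 976, 33 bp from its start site). SNF4Agamma, the AMPK gamma subunit gene, had 12 summits over 73531 bp but none above 667.

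Of the 8 genes for effectors of TORC1, S6k and Thor among them, 7 (87.5%) had a summit, against 37.4% of all protein-coding genes and 59.1% of those of at least 5000 bp. Their median span was 8113 bp. REPTOR, a transcription factor gene whose product is restrained by TORC1, had 11, with the strongest at 3322, 267 bp from its start site, at ranks of 101, 70 and 95. The top lists placed 10, 15 and 13 summits there, a mean of 12.7 ± 2.52 (SD, n = 3). Atg1, which encodes the autophagy kinase, had 4, up to 818. Beside foxo, the kinase gene sgg, for the fly GSK3, had 12 summits in the optimal list and 7, 12 and 12 in the top lists. Mitf, on chromosome 4, had 0.

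**Figure D5:**
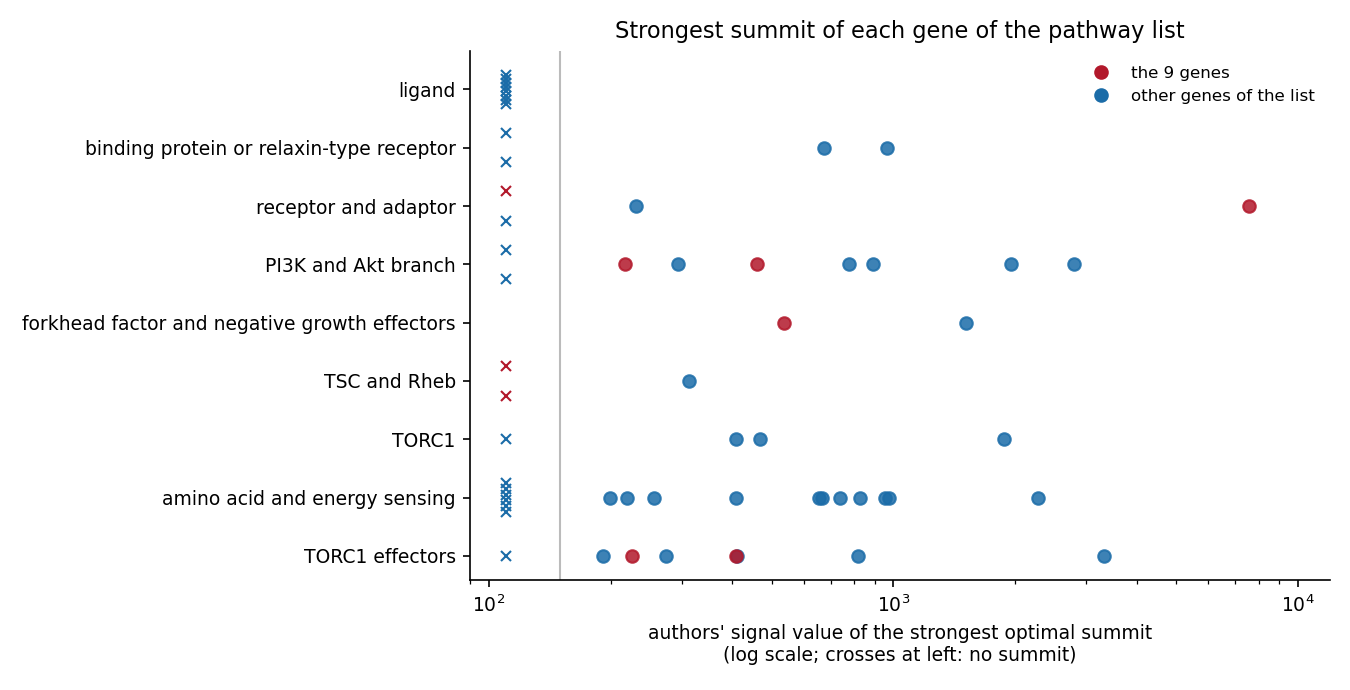
The authors' signal value (x axis, log scale) of the strongest optimal summit of each of the 59 genes, by role, in red for the 9 genes, with crosses at the left for genes without a summit. InR, at 7563, has the highest value, and every insulin-like peptide gene is a cross.

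The genes whose pattern was most like that of InR were sought among 473 other bound protein-coding genes with a span within 2 times its own, by the mean absolute difference in log2 number of summits, log2 strongest signal and share of summits within 500 bp of a start site. The nearest was ush, for the GATA cofactor U-shaped, with 20 summits and a strongest signal of 7114, at a distance of 0.03. Next were brat, a growth regulator and translational repressor gene, with 22 summits and 4164, and Tlk, the Tousled-like kinase gene, with 24 summits and 4395, at distances of 0.36 and 0.38.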

How the data were processed

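The authors deposited peak lists on dm6 and dm3. By their names, the lists per replicate and the pooled one contain both peaks and background and served as input to the irreproducible discovery rate (IDR) procedure, whose thresholded result is the optimal list. The aligner, the caller and the IDR threshold were not given in the sources used here. Each entry carries the authors' signal value, the authors' −log10 q-value and a summit offset, as deposited. Sonicated fragments were 200 to 800 bp, per the labels. The dm3 lists and the control were not used here.

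Gene models were Ensembl release 115 (BDGP6, annotation 6.54) without transposable elements. A summit was assigned to a gene in its span or within 1 kb. Top lists are the 9459 strongest entries of each replicate list, and a peak was supported when overlapped by at least 1 bp. The matching replicate entry is the overlapping one with the nearest summit. The 584 optimal entries that repeat coordinates were kept, since their summits differ. Errors are SDs over the 3 replicates. Depth is unknown, because no read counts are given, and counting intervals could not be made.

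The named genes are the 9, the 2 others per role with the highest signal, the nearest start site of the strongest summits and the 3 genes most like InR. Other names were added for lists of 5 or fewer, and SNF4Agamma and the 4 further InR sequences were chosen after their values were seen. The genes, lists and motifs were chosen with earlier results of these data known. Counting was run on simulated summits, but the expected counts used the same rule, so this could not test the rule. Joining of overlapping simulated entries gave as many sets as a separate program. Python 3.11.15, numpy 2.4.6, pandas 2.3.3 and matplotlib 3.10.9 were used.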

Additional observations from a re-analysis of the deposited data

How the results depend on the processing

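Across 37 alternatives for 5 results, 30 counts stayed within 1.5 times the value given. Some of these alternatives repeated another or could not change the count, as stated below. Summits at the 9 genes, 27, numbered 16 with the stronger 50% of the optimal peaks and 78 in the pooled list with background. The 22 supported by every replicate numbered 13 with reciprocal overlap of 50% and 13 with top lists of 50% of the length. Summits near a start site, 6, numbered 14 within 1 kb. Windows with GAGAG, 9, numbered 5 of 27 at 25 bp to each side and 14 of 27 at 100 bp, against 8.85% and 31.6% of all optimal windows. Leaving out each replicate in turn, by keeping optimal peaks in the top lists of the others, gave 5 to 6 bound genes and 23 to 24 summits. Of these summits, 6 lay near start sites and 9 had GAGAG. The supported count without a replicate is the same count of summits by construction. The optimal list itself was still made from all 3 replicates, so no replicate was fully left out. Bound genes numbered 4 with the stronger 50% of peaks (without S6k and Akt), 5 without the 1 kb margin (without Thor) and 7 with 5 kb (with gig). The share of 37.4% over all protein-coding genes was not recounted at these settings, so these counts cannot be set against it. Over 36 alternatives for single genes, 28 counts stayed within 1.5 times. Genes with 0 summits could not change at settings that only remove summits, so this tally does not measure robustness. InR had 12 summits with the stronger 50% of peaks, where Akt and S6k had 0. With a 5 kb margin Akt had 4, foxo 5, Thor 2 and gig 1, and with none Thor had 0. RefSeq spans of the 9 genes were identical to those of Ensembl, so that alternative could not change the counts. Chico and Tsc1 had 0 summits in the optimal list at each of these settings. No paired analysis was possible because the 3 samples form a single group. With depth unknown, a gene without a summit could not be told from one below the detection of these lists.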

Other observations

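Below the optimal list, foxo held many weaker entries. The pooled list with background had 20 entries at foxo, 17 of them below the optimal list, and 6 of these had a q-value of at most 0.01. The replicate lists held 18, 24 and 20 entries there. InR held 21 entries below the optimal list, 10 with such a q-value, S6k 7 and 3, and Thor 2 and 1, while Akt had 2 and chico and Pi3K92E 1 each, none at that q-value. Their signal values were at most 188 at foxo, 183 at Thor, 176 at S6k and 169.8 at InR, and 90.1 at chico.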
